A study of Mus musculus with 9 samples.

Results

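The proteasome subunit genes of mouse are described here across 3 groups of embryonic stem cell libraries. The members are the protein-coding genes whose symbol begins with Psma, Psmb, Psmc, Psmd, Psme, Psmf or Psmg followed by a number, and they number 50 of the 48440 genes in each count table. The symbol pattern alone met 54 genes, of which 4 are pseudogenes and were left out. By subcomplex the 50 are 7 genes of the 20S alpha ring, 3 catalytic and 4 non-catalytic genes of the 20S beta ring, 5 tissue-specific or inducible core subunits, 6 ATPases and 3 other genes of the 19S base, 8 genes of the 19S lid, 5 activators, the regulator Psmf1, 4 chaperones of 20S assembly and 3 chaperones of base assembly. The remaining member, Psmc3ip, shares the symbol only: it encodes a partner of meiotic recombinases, not a subunit.

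All 9 libraries came from J1 cells, a mouse embryonic stem cell line, of the genotype Suz12-AID, in which Suz12 carries an auxin-inducible degron, and were made from poly(A) RNA. The SUZ12 protein belongs to the core of the Polycomb complex PRC2. The groups were Mock, Auxin (indole-3-acetic acid at 50 µM for 96 h) and Reintroduction (the auxin course followed by a washout of 4.5 h), with 3 biological replicates each. Every group grew on gelatin in serum with LIF and the inhibitors PD0325901 (1 µM) and CHIR99021 (3 µM). No group carried an untagged Suz12 under auxin, so that loss of Suz12 and any other effect of auxin or of the washout cannot be told apart. The promoter of the auxin receptor and whether the line is 1 clone are not given in the sources used here.

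The proteasome degrades proteins that carry ubiquitin chains. Its 20S core particle is a barrel of stacked alpha and beta rings whose beta subunits hold the protease sites, and its 19S regulatory particle, made of a base with a ring of ATPases and a lid, binds ubiquitin, removes it and feeds the unfolded chain into the barrel. Subunit genes are usually expressed together, and the transcription factor NFE2L1 raises them when proteasome activity is short. Stem cells of the embryo are known for high proteasome activity.

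Library totals ran from 44341283 to 113931419 counts, in which each read of a pair was counted. The Suz12 transcript, which a protein degron does not target, stood at 125 to 138 CPM (counts scaled by TMM to a common library size) in Mock, 122 to 152 CPM in Auxin and 164 to 173 CPM in Reintroduction. Suz12 was not called from Mock to Auxin (log2 fold change 0.09, SE 0.080, adjusted p = 0.35) and was called higher after washout, by 0.25 against Auxin (adjusted p = 0.0245) and 0.33 against Mock (adjusted p = 0.0034). Of 10 embryonic stem cell markers, 9 stood at 81.7 TPM (a level per exon length, scaled to the same sum in each library) or more as the mean of each group, and Dppa3 at 0.67 to 1.29 TPM. Summed TPM of 5 primitive endoderm markers was 0.84 to 1.14 in Mock, 5.76 to 6.12 in Auxin and 2.49 to 2.68 in Reintroduction. All 5 were called higher in Auxin than in Mock, beside 38.4% of all genes tested. Of the 10 stem cell markers, 6 were called higher and 3 lower in Auxin, beside 38.4% and 34.8% of all genes. Of the fibroblast markers Thy1 stood at 14.6, 44.1 and 38.0 TPM in the 3 groups while the collagens and Dcn were at or under 0.09 TPM, and of the immune markers Ptprc and Adgre1 were at 0.00 TPM while Cd3e stood at 1.03, 0.27 and 0.21 TPM. Their part in the results below was not tested.

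As a share of all counts, the 50 genes held 0.575% to 0.595% in the Mock libraries, 0.372% to 0.422% in the Auxin libraries and 0.467% to 0.468% in the Reintroduction libraries, with no overlap between groups. Summed over the 50 genes, the level per exon length was 4003, 4011 and 3996 TPM in Mock, 2933, 3071 and 2888 TPM in Auxin and 3472, 3516 and 3494 TPM in Reintroduction. Of the 50, 48 passed the filter on low counts and were tested. Psmb8 and Psmb11 had 0 to 3 and 0 to 4 counts per library and were not. A lower sum in bulk RNA can come from fewer cells that express these genes or from less RNA of them per cell. Both sums are relative to all RNA of a library, so they also fall where other RNA rises. These cannot be told apart.

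Many proteasome genes have processed copies, intronless sequences elsewhere in the genome that arose from spliced transcripts. Such copies of 15 members were found in the annotation at an identity of at least 85% over at least 500 bases, 26 copies in all. The copies were counted as genes of their own. Among them is Psme2b, itself a protein-coding member, which was taken as a copy of Psme2. A read from the spliced transcript that crosses an exon junction can match such a copy without a gap where their sequence is the same. The sequences below show 4 coding junctions, each with 20 bases of the exon before and 20 of the exon after, read 5′ to 3′ from GENCODE M21 transcripts. The capitals mark the last base of one exon and the first base of the next, and each run is present unbroken in an annotated copy.
Psma3, exons 9 to 10, chr12:70993061-70993080 and chr12:70993506-70993525, in Gm13835, Gm4742 and Gm5406: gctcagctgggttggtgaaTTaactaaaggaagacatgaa
Psma5, exons 5 to 6, chr3:108267881-108267900 and chr3:108268033-108268052, in Gm12989 and Gm8394: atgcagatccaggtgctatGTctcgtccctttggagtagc
Psmb5, exons 1 to 2, chr14:54617794-54617813 and chr14:54616802-54616821, minus strand, in Gm3375: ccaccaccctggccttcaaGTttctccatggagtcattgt
Psmd2, exons 11 to 12, chr16:20657590-20657609 and chr16:20657974-20657993, in Gm5422: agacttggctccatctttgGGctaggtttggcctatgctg
Such runs were found for 8 of 10 coding junctions of Psma3, 7 of 8 of Psma5, 2 of 2 of Psmb5 and 6 of 20 of Psmd2. No such run was found for Psmb1 (0 of 5), Psmb6 (0 of 5), Psmb7 (0 of 7), Psmd13 (0 of 12) or Psmd14 (0 of 9). Copies of Psmb6 nonetheless held 55.9% to 56.2% of the counts of the gene and its copies in Mock.

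In 9 members the copies held more than 50% of the counts of the gene and its copies together in every library. For Psma3 that share was 91.9% to 92.3% in Mock, 90.8% to 91.8% in Auxin and 90.1% to 90.4% in Reintroduction. For Psma5 it was 92.4% to 93.2% in Mock, for Psmb3 78.7% to 81.3%, for Psmb5 70.2% to 71.4% and for Psmd2 69.0% to 69.4%. The CPM and TPM given for these genes cover only the reads assigned to the gene itself. With the copies added in, Psmb5 became the highest member in Mock, at 461 ± 13.4 TPM (SD, n = 3), above its 135 TPM alone.

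From Mock to Auxin, 45 of the 48 tested members were called lower (adjusted p under 0.05, edgeR), 1 was called higher and 2 were not called. Over all 20838 genes tested, 34.8% were called lower and 38.4% higher, 73.2% in all. The median log2 fold change of the members was -0.75, beside 0.05 over all genes tested. All 31 genes of the constitutive core and regulatory particle were called lower, with log2 fold changes from -1.58 (Psmb3) to -0.33 (Psmc6). The calls of Psmc6 and Psmd11 ended under other corrections of the counts, given with these genes, and so did that of the chaperone Psmg2 (-0.02 with the length trend removed, adjusted p = 0.70). In 46 members every Auxin library lay below every Mock library, which held for 35.8% of all genes. The higher member was Psma8 and the uncalled ones were Psmg4 and Psmb9.

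The 3 Auxin libraries were not alike in these genes: Auxin replicate 2 was the highest of them in 45 of the 48 members, with a median of 0.21 above the mean of the other two on the scale of log2(CPM + 1). The same library was the highest of its group in 46.5% of all genes, with a median of 0.02. Without it the count of members called lower from Mock to Auxin stayed at 45, beside 36.3% of all genes, and the median of the members became -0.86. Among the Mock libraries, replicate 1 was the highest in 39 members, with a median of 0.10.

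From Auxin to Reintroduction, 32 members were called higher and 3 lower, while 25.5% of all genes tested were called higher and 25.5% lower, 50.9% in all. Of the 45 members called lower in Auxin, 32 (71.1%) were called higher after washout, beside 49.8% of the 7261 genes called lower in Auxin. The median log2 fold change of the members was 0.29, beside 0.00 over all genes tested. In 29 members every Reintroduction library lay above every Auxin library, as in 28.8% of all genes. The alpha ring (7 of 7), the ATPases (6 of 6) and the lid (7 of 8) were called higher nearly throughout, whereas 3 of 7 constitutive beta ring genes were. None of the 4 chaperones of 20S assembly was called by edgeR, none passed at an unadjusted p under 0.05 and none was called by DESeq2. Without Auxin replicate 2 the count of members called higher rose to 37, beside 27% of all genes. The rise came from Psmb1, Psmb5, Psmb6, Psmd4 and Psme1, which were then called higher. Without Auxin replicate 1 the count was 23, beside 21.6% of all genes.

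From Mock to Reintroduction, 40 members were called lower and none higher, with 33.4% of all genes called lower and 34.7% higher, 68.1% in all. Of the 45 members called lower in Auxin, 38 (84.4%) were still called lower than Mock, beside 76.1% of the 7261 genes called lower in Auxin. In 43 members every Reintroduction library lay below every Mock library (37.0% of all genes), and in Psma3 and Psme4 above (38.2%). At an unadjusted p under 0.05, 1 member (Psme4) was higher, and DESeq2 called none higher. The median log2 fold change was -0.44 for the members and 0.03 for all genes tested. The 8 uncalled members were Psmc6, Psmd11, Psmd14, Psma3, Psmg4, Psme4, Psmd10 and Psmd5. With a fold change of at least 1.5 also required, 32 members were lower and 0 higher from Mock to Auxin (51.4% of all genes called in either direction), 3 higher and 2 lower from Auxin to Reintroduction (23.8%) and 18 lower and 0 higher from Mock to Reintroduction (41.2%). The last comparison shares the Mock libraries with the first and the Reintroduction libraries with the second, so the 3 sets of values are not independent of each other.

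**Figure D1:**
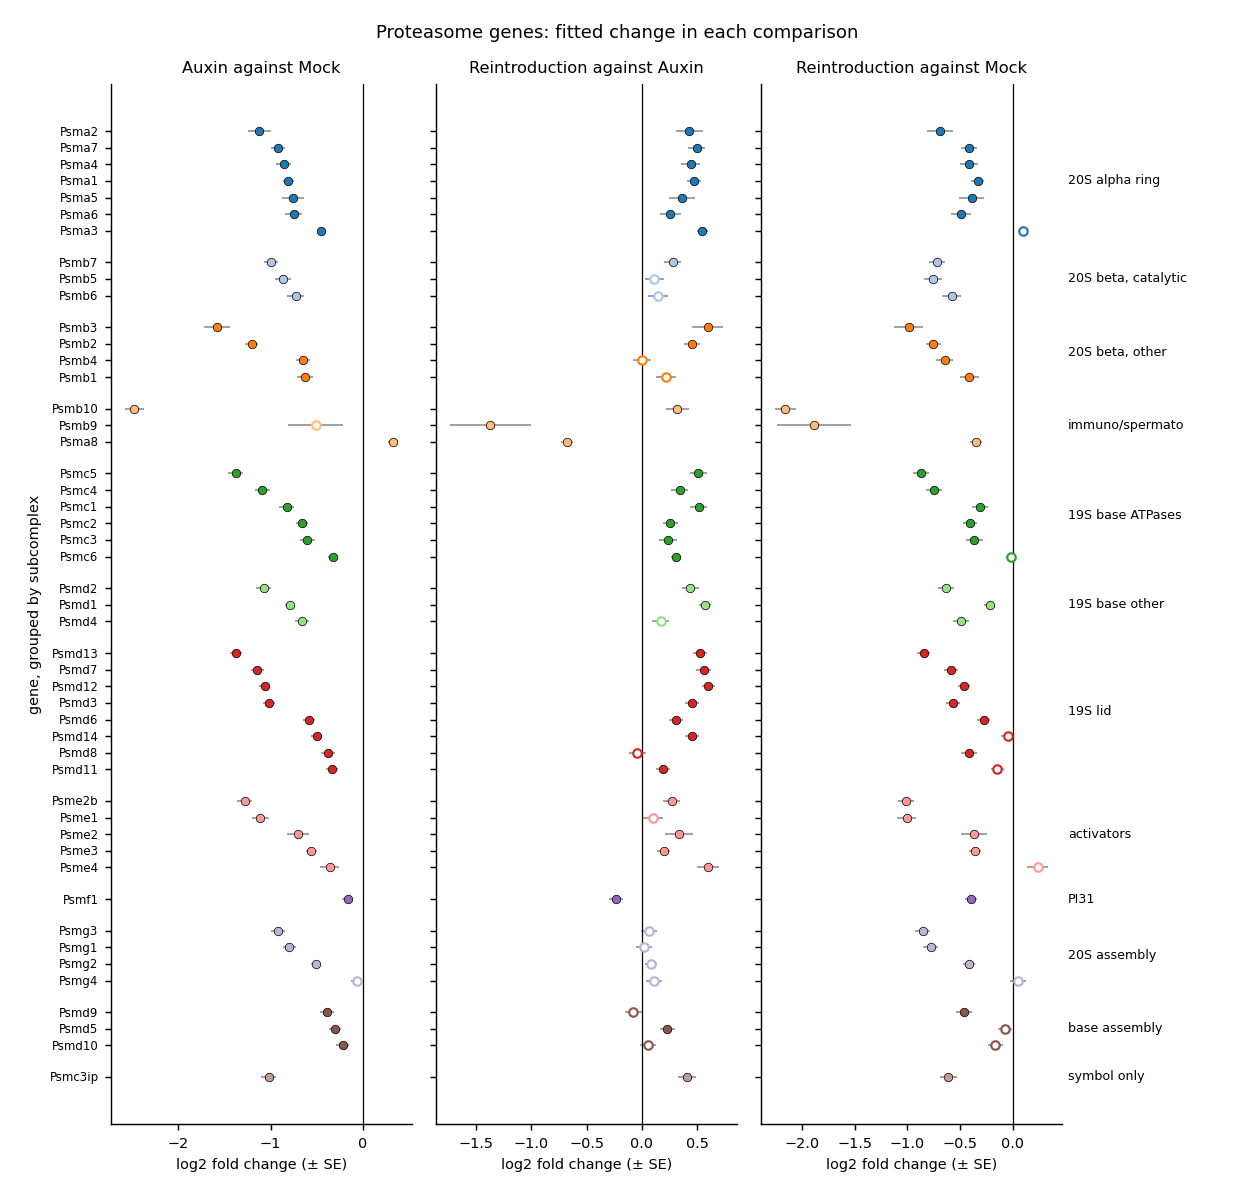
Log2 fold change with its standard error (x axes) of the 48 tested genes (rows, grouped by subcomplex) in the 3 comparisons. Filled points were called at an adjusted p under 0.05 and open points were not: 46 of 48 are filled from Mock to Auxin, 35 from Auxin to Reintroduction and 40 from Mock to Reintroduction.

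The alpha ring genes Psma1 to Psma7 build the outer rings of the barrel, whose gate opens when an activator docks. All 7 were called lower under auxin (median log2 fold change -0.81) and all 7 higher after washout than in Auxin (median 0.44), and 6 were called lower than Mock after washout. The calls after washout of Psma5 and Psma6 were each lost on leaving out single libraries: without Auxin replicate 1 they stood at 0.32 (adjusted p = 0.076) and 0.20 (adjusted p = 0.14). Psma5 was no longer called lower than Mock after washout with total counts (-0.26, adjusted p = 0.059) or with the length trend removed (-0.08, adjusted p = 0.485). The largest difference was that of Psma2, which stood at 52.1, 48.5 and 48.9 CPM in Mock, 20.7, 28.9 and 19.1 CPM in Auxin and 30.9, 32.2 and 29.5 CPM in Reintroduction. The Auxin libraries of Psma2 lay below all others, and its log2 fold change from Mock to Auxin was -1.12 (SE 0.126, adjusted p = 8.9e-06). After washout it was 0.43 (SE 0.126, adjusted p = 0.015) against Auxin, a call lost without Auxin replicate 1 (0.35, adjusted p = 0.063) or Reintroduction replicate 2 (0.40, adjusted p = 0.051) and with length and GC trends removed (0.00095, adjusted p = 0.997).

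The smallest difference in the ring was that of Psma3, which stood at 29.1, 29.7 and 27.8 CPM in Mock, 21.2, 21.4 and 20.8 CPM in Auxin and 31.3, 31.1 and 30.1 CPM in Reintroduction. From Mock to Auxin its log2 fold change was -0.45 (SE 0.051, adjusted p = 1.0e-05). All 3 Reintroduction libraries of Psma3 lay above the highest Mock library, with a change on the log2 scale of 0.09 (SE 0.051, adjusted p = 0.12), which was not called and turned to -0.24 with length and GC trends removed. These values cover only reads on the gene itself, while its copies held 90.1% to 90.4% of the counts in Reintroduction. With copies added to their gene, Psma3 was at -0.21 and all 7 ring genes were called lower than Mock after washout. The other ring genes had log2 fold changes from Mock to Auxin of -0.91 (Psma7), -0.86 (Psma4), -0.81 (Psma1), -0.76 (Psma5) and -0.75 (Psma6).

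The catalytic genes of the constitutive beta ring are Psmb5 (chymotrypsin-like site, chr14:54614120-54617995 in mm10), Psmb6 (caspase-like site, chr11:70525367-70527858) and Psmb7 (trypsin-like site, chr2:38588036-38644087). Psmb5 stood at 92.3, 79.6 and 78.4 CPM in Mock, 43.7, 51.7 and 41.96 CPM in Auxin and 48.8, 50.6 and 48.9 CPM in Reintroduction. Psmb6 stood at 160, 135 and 141 CPM in Mock, 83.3, 100 and 79.9 CPM in Auxin and 97.6, 93.9 and 99.9 CPM in Reintroduction. Psmb7 stood at 79.5, 72.2 and 73.3 CPM in Mock, 36.6, 42.1 and 34.2 CPM in Auxin and 45.1, 44.7 and 47.01 CPM in Reintroduction. In all 3 genes every Mock library lay above every Auxin and every Reintroduction library.

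The log2 fold change from Mock to Auxin was -0.87 (SE 0.086, adjusted p = 3.1e-06) for Psmb5. It was -0.73 for Psmb6 and -0.99 for Psmb7, both called. After washout Psmb7 was called higher than in Auxin, at 0.28 (SE 0.075, adjusted p = 0.01), and no longer so with length and GC trends removed (0.04, adjusted p = 0.78). Psmb5 stood at 0.11 (adjusted p = 0.31) and Psmb6 at 0.15 (adjusted p = 0.19), so that no rise of either was detected. Without Auxin replicate 2 those values were 0.19 (adjusted p = 0.023) for Psmb5 and 0.24 (adjusted p = 0.0051) for Psmb6. All 3 were called lower than Mock after washout, at -0.76, -0.58 and -0.72.

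The non-catalytic beta genes Psmb1 to Psmb4 were also called lower in Auxin (4 of 4) and after washout (4 of 4), where the call of Psmb1 ended with the length trend removed (-0.03, adjusted p = 0.65). Psmb3 had the largest fall of any constitutive subunit gene: it stood at 36.98, 37.2 and 37.4 CPM in Mock, 12.2, 15.6 and 9.41 CPM in Auxin and 19.3, 19.9 and 17.1 CPM in Reintroduction. The Mock libraries of Psmb3 lay highest, the Auxin libraries lowest, and no ranges overlapped. The change on the log2 scale was -1.58 (SE 0.141, adjusted p = 1.3e-06) from Mock to Auxin and 0.59 (SE 0.141, adjusted p = 0.0045) from Auxin to Reintroduction. Psmb1 stood at 134, 127 and 122 CPM in Mock, 76.4, 96.5 and 74.7 CPM in Auxin and 99.01, 95.6 and 93.2 CPM in Reintroduction, with a change on the log2 scale of -0.63 (SE 0.089, adjusted p = 6.2e-05) from Mock to Auxin. Psmb4 had log2 fold changes of -0.65 in Auxin and -0.65 after washout, both against Mock, and 0.00 between those groups. Psmb2 was at -1.21 from Mock to Auxin and rose by 0.45 after washout.

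Interferon-inducible subunits can replace the catalytic ones to form the immunoproteasome, which favours peptides for antigen presentation: Psmb9 takes the place of Psmb6, Psmb10 of Psmb7 and Psmb8 of Psmb5. Psmb10 (chr8:105935728-105938392) had the largest fall of all members and stood at 36.9, 32.5 and 30.8 CPM in Mock, 5.20, 6.88 and 6.003 CPM in Auxin and 7.50, 7.55 and 7.45 CPM in Reintroduction. The 3 ranges of Psmb10 did not overlap, and the Mock libraries lay far above the others. The change on the log2 scale was -2.47 (SE 0.102, adjusted p = 3.2e-09) from Mock to Auxin and -2.16 (SE 0.101, adjusted p = 2.5e-08) from Mock to Reintroduction. The difference between those groups was 0.32 (SE 0.104, adjusted p = 0.025). Leaving out any Auxin or Reintroduction library other than Auxin replicate 2 ended that last call: without Auxin replicate 1 it was 0.21 (adjusted p = 0.11), and without each of the others 0.31 to 0.32 (adjusted p from 0.053 to 0.067).

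Psmb9 (chr17:34181988-34187764) was near the lower limit of detection, with 46, 32 and 36 counts in Mock, 31, 23 and 17 under auxin and 7, 9 and 8 after washout, or 0.447, 0.386 and 0.504 CPM in Mock, 0.378, 0.302 and 0.248 CPM in Auxin and 0.0878, 0.201 and 0.0980 CPM in Reintroduction. The 3 ranges in CPM of Psmb9 did not overlap. The log2 fold change was -0.51 (SE 0.298, adjusted p = 0.14) from Mock to Auxin, which was not called, -1.37 (SE 0.366, adjusted p = 0.0091) from Auxin to Reintroduction and -1.88 (SE 0.351, adjusted p = 6.2e-04) from Mock to Reintroduction. Psmb9 shares exon sequence with Tap1 on the other strand, and since counting did not use strand, reads of the 2 genes cannot be told apart there. Tap1, a peptide transporter of antigen presentation, had log2 fold changes of 0.50, -1.57 and -1.07 in the same 3 comparisons, the first not called and the last no longer called without Reintroduction replicate 3 (-0.83, adjusted p = 0.053). Psmb8 had 3, 2 and 0 counts in Mock, 3, 2 and 3 in Auxin and 0 in each Reintroduction library, and a count of 0 allows up to 3, so no difference was detectable at this depth.

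**Figure D2:**
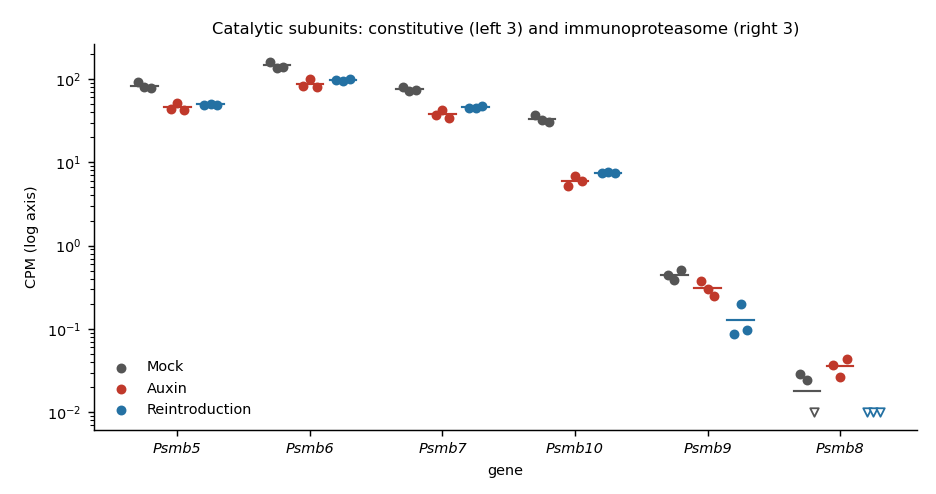
CPM on a log axis of the 3 constitutive catalytic genes and of the 3 immunoproteasome genes in the 9 libraries. Points are libraries, bars are group means and open triangles at the foot are libraries with 0 counts. Psmb10 lies at 30.8 to 36.9 CPM in Mock and at 5.20 to 7.55 CPM in the other groups, and Psmb8 is close to 0 throughout.

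The remaining core variants are Psma8, the alpha subunit of the spermatoproteasome, and Psmb11, the thymus-specific subunit, which had 0 to 4 counts per library. Psma8 was the member called higher in Auxin. It stood at 15.7, 15.2 and 15.5 CPM in Mock, 18.7, 19.6 and 19.9 CPM in Auxin and 12.1, 12.6 and 11.7 CPM in Reintroduction, with the highest values in Auxin, the lowest in Reintroduction and no overlap between groups. The log2 fold change was 0.33 (SE 0.057, adjusted p = 2.9e-04) from Mock to Auxin, -0.68 (SE 0.058, adjusted p = 3.1e-06) from Auxin to Reintroduction and -0.35 (SE 0.058, adjusted p = 2.5e-04) from Mock to Reintroduction. With the length trend removed the last value was -0.10 (adjusted p = 0.17).

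The base ATPases Psmc1 to Psmc6 unfold substrates and push them into the core. All 6 were called lower under auxin (median log2 fold change -0.74) and all 6 higher after washout than in Auxin (median 0.32). Psmc5 had the largest fall and stood at 330, 297 and 310 CPM in Mock, 113, 134 and 113 CPM in Auxin and 163, 171 and 179 CPM in Reintroduction. Its Reintroduction libraries lay between the Auxin and the Mock libraries, at log2 fold changes of -1.38 (SE 0.077, adjusted p = 2.8e-08) from Mock to Auxin and 0.51 (SE 0.076, adjusted p = 2.0e-04) after washout against Auxin.

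Psmc6 had the smallest fall of the ATPases and stood at 181, 177 and 177 CPM in Mock, 143, 143 and 141 CPM in Auxin and 171, 184 and 173 CPM in Reintroduction. On the log2 scale it differed by -0.33 (SE 0.048, adjusted p = 7.9e-05) from Mock to Auxin, and the Reintroduction libraries of Psmc6 overlapped those of Mock, at -0.02 (SE 0.048, adjusted p = 0.7). Psmc6 was called higher after washout at 0.31, and this turned to -0.22 once trends of counts on exon length and GC content were removed together. The call of Psmc6 in Auxin ended with the length trend removed (-0.02, adjusted p = 0.735) and with both trends removed (-0.14, adjusted p = 0.275). Both trends removed also ended the call of Psmc2 after washout (0.09, adjusted p = 0.52), and the length trend removed ended that of Psmc1 against Mock after washout (-0.03, adjusted p = 0.58). The call of Psmc3 after washout (0.23) was lost without any one of Auxin replicate 1 or 3 or of the Reintroduction libraries (0.18 to 0.25). The other ATPases lay between these from Mock to Auxin, at -1.09 (Psmc4), -0.82 (Psmc1), -0.66 (Psmc2) and -0.60 (Psmc3).

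Of the other base genes, Psmd1 and Psmd2 encode the large scaffolds and Psmd4 a ubiquitin receptor, and all 3 were called lower in Auxin and after washout. With total counts Psmd1 was not called against Mock after washout (-0.09, adjusted p = 0.14). Psmd2 stood at 249, 240 and 240 CPM in Mock, 111, 132 and 104 CPM in Auxin and 154, 160 and 155 CPM in Reintroduction, a log2 difference of -1.07 (SE 0.078, adjusted p = 2.4e-07) from Mock to Auxin. Psmd4 stood at 244, 217 and 225 CPM in Mock, 136, 164 and 135 CPM in Auxin and 163, 160 and 166 CPM in Reintroduction, at -0.66 (SE 0.076, adjusted p = 1.2e-05) from Mock to Auxin. Auxin replicate 2 of Psmd4 lay within the Reintroduction range, and the change after washout, 0.17, was not called (adjusted p = 0.086). Without that library it was 0.25 (adjusted p = 7.0e-04). Psmd1 was called higher after washout at 0.57, the largest such value of the base.

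The lid holds the deubiquitinase Psmd14, which removes ubiquitin chains from substrates, and its scaffold subunits. Each of the 8 lid genes fell under auxin, at a median log2 fold change of -0.80. Psmd13 had the largest fall and stood at 165, 150 and 148 CPM in Mock, 57.3, 63.6 and 58.1 CPM in Auxin and 89.1, 82.96 and 85.5 CPM in Reintroduction, at -1.37 (SE 0.063, adjusted p = 6.6e-09) from Mock to Auxin. It shares exon sequence with Sirt3 on the other strand. Of the members, 15 share exon sequence with another gene, among them the catalytic genes Psmb5 (with Mir686) and Psmb7 (with Nek6). Psmd12 had the highest change of all members after washout, 0.60 (SE 0.057, adjusted p = 7.0e-06): it stood at 223, 216 and 217 CPM in Mock, 103, 113 and 98.1 CPM in Auxin and 156, 161 and 159 CPM in Reintroduction. Psmd11 had the smallest fall of the lid, -0.34 (SE 0.065, adjusted p = 6.3e-04), and stood at 88.9, 87.6 and 89.2 CPM in Mock, 68.3, 75.7 and 66.1 CPM in Auxin and 84.6, 81 and 74.4 CPM in Reintroduction. With total counts Psmd11 was not called from Mock to Auxin (-0.13, adjusted p = 0.0815). Psmd11 was called higher after washout at 0.19, which turned to -0.05 with length and GC trends removed, and without any of Auxin replicate 1 or 3 or Reintroduction replicate 1 or 2 it was not called (0.14 to 0.19). Psmd14 fell by 0.50 in Auxin and was at -0.05 after washout against Mock, not called. Psmd8 was the lid gene not called higher after washout, at -0.04. The other lid genes were at -1.14 (Psmd7), -1.01 (Psmd3) and -0.58 (Psmd6) from Mock to Auxin.

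**Figure D3:**
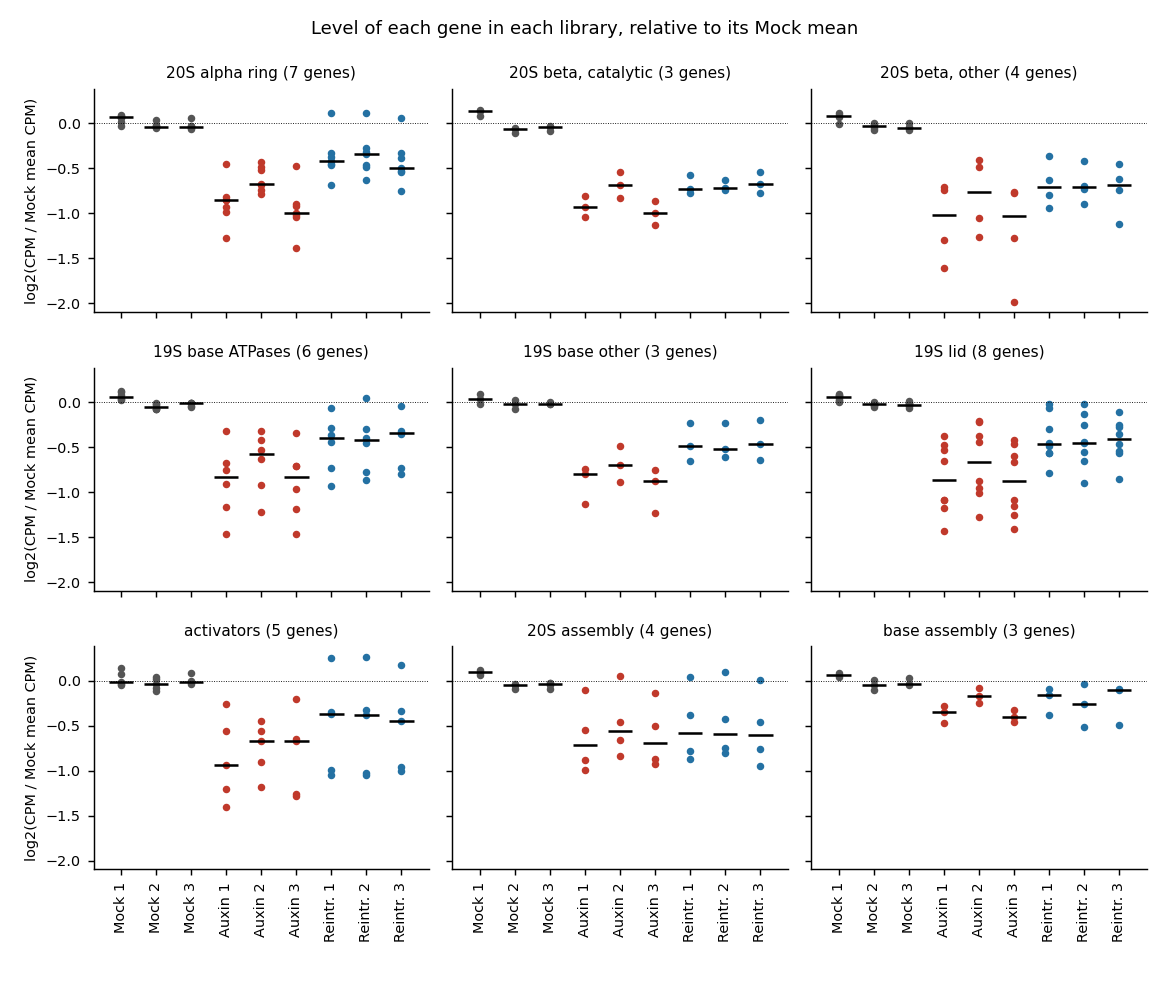
Level of each gene in each library as log2 of its CPM over its mean CPM in Mock (y axes), for 9 subcomplexes. Points are genes and bars are the median of the genes in that library. Auxin replicates 1 and 3 lie lowest in the core and the regulatory particle, and Auxin replicate 2 lies above them, with its median near those of the Reintroduction libraries in the catalytic beta genes, while in 20S assembly no gene differs by more than 0.11 on the log2 scale between Auxin and Reintroduction.

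Activators other than the 19S particle dock on the alpha ring. Psme1 and Psme2 form an interferon-inducible cap, Psme3 a nuclear one, and Psme4 encodes a large activator that does not use ATP. All 5 activator genes were called lower in Auxin and 4 were called higher after washout than in Auxin. Of these calls after washout, those of Psme2, Psme2b and Psme3 were lost on leaving out single libraries, Psme2 at 0.21 (adjusted p = 0.19) and Psme2b at 0.20 (adjusted p = 0.073) without Auxin replicate 1 and Psme3 at 0.14 (adjusted p = 0.057) without Auxin replicate 3. Psme2 was also no longer called lower than Mock after washout with total counts (-0.24, adjusted p = 0.097) or the length trend removed (-0.14, adjusted p = 0.33). Psme2b, whose sequence is 99.4% identical to Psme2 over 794 aligned bases, had the largest fall and stood at 61.7, 51.8 and 54.6 CPM in Mock, 21.3, 24.8 and 23.1 CPM in Auxin and 27.2, 27.1 and 28.9 CPM in Reintroduction. On the log2 scale it differed by -1.28 (SE 0.079, adjusted p = 6.1e-08) from Mock to Auxin and -1.01 (SE 0.078, adjusted p = 8.0e-07) after washout against Mock. Psme1 was at -1.11 and -1.01 in the same comparisons. Psme2 itself held 104 to 288 counts per library, and how reads were divided between Psme2 and Psme2b is uncertain.

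Psme4 differed in pattern: it stood at 188, 198 and 190 CPM in Mock, 161, 121 and 167 CPM in Auxin and 229, 231 and 217 CPM in Reintroduction. Auxin replicate 2, the highest Auxin library in 45 members, was the lowest for Psme4, and all Reintroduction libraries lay above all Mock libraries. The log2 fold change was -0.36 (SE 0.101, adjusted p = 0.0072) from Mock to Auxin, -0.23 (adjusted p = 3.4e-04) without Auxin replicate 2 and -0.15 (adjusted p = 0.23) with total counts, which ended the call. It was 0.60 (SE 0.101, adjusted p = 5.2e-04) after washout against Auxin and 0.24 (SE 0.101, adjusted p = 0.057) against Mock, not called. With the trend on exon length removed the last value was -0.18, and with length and GC trends removed it was -0.26.

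Psmf1, the proteasome regulator PI31, had the smallest fall called in Auxin and stood at 40.6, 38.1 and 37.6 CPM in Mock, 34.6, 36.5 and 32.7 CPM in Auxin and 28.2, 30.3 and 29.9 CPM in Reintroduction. The change on the log2 scale was -0.16 (SE 0.060, adjusted p = 0.029) from Mock to Auxin, which turned to 0.05 when libraries were scaled by total counts alone. The call was lost without Mock replicate 1 (-0.14, adjusted p = 0.069), Auxin replicate 1 (-0.17, adjusted p = 0.052) or Auxin replicate 3 (-0.12, adjusted p = 0.12). It also ended with no filter, at least 1 CPM in 3 libraries, only the 2 groups fitted, a replicate block or counts halved (adjusted p from 0.0501 to 0.111). In TPM every Auxin library of Psmf1 lay above every Mock library. After washout Psmf1 was called lower than in Auxin, at -0.23 (SE 0.061, adjusted p = 0.0077), and lower than in Mock, at -0.40.

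Chaperones put the particles together. Psmg1 to Psmg4 guide the alpha ring, and 3 of these 4 were called lower in Auxin. Psmg3 had the largest fall and stood at 24.5, 22.2 and 22.3 CPM in Mock, 11.5, 12.9 and 12.1 CPM in Auxin and 12.6, 13.7 and 11.98 CPM in Reintroduction, a change on the log2 scale of -0.92 (SE 0.072, adjusted p = 4.7e-07) from Mock to Auxin. After washout it was at 0.06 (SE 0.074, adjusted p = 0.52) against Auxin, where the ranges overlapped. Psmg1 and Psmg2 were at -0.80 and -0.50 from Mock to Auxin and at 0.02 and 0.08 after washout against Auxin. Psmg4 stood at 17.5, 15.7 and 15.1 CPM in Mock, 15, 16.7 and 14.6 CPM in Auxin and 16.6, 17.2 and 16.2 CPM in Reintroduction, and the groups overlapped in all 3 comparisons. The log2 change from Mock to Auxin was -0.06 (SE 0.074, adjusted p = 0.48), a sign that scaling by total counts (0.15) and removal of the length trend (0.58) reversed.

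The base chaperones Psmd5, Psmd9 and Psmd10 were called lower in Auxin by small amounts. Psmd9 stood at 34.1, 30.3 and 33.3 CPM in Mock, 23.6, 27.5 and 23.7 CPM in Auxin and 25.02, 22.8 and 23.1 CPM in Reintroduction, at -0.38 (SE 0.076, adjusted p = 7.8e-04) from Mock to Auxin. Psmd10 stood at 25.6, 25.1 and 24.1 CPM in Mock, 20.6, 23.6 and 19.98 CPM in Auxin and 22.4, 20.9 and 23.2 CPM in Reintroduction, at -0.22 (SE 0.072, adjusted p = 0.017) from Mock to Auxin, a call lost without Auxin replicate 3 (-0.17, adjusted p = 0.069) and a sign reversed with the length trend removed (0.11). Psmd5 was at -0.30. With total counts neither Psmd5 (-0.09, adjusted p = 0.19) nor Psmd10 (-0.01, adjusted p = 0.89) was called from Mock to Auxin. For Psmd5 the call after washout (0.23) was lost without Auxin replicate 1 (0.19, adjusted p = 0.063). On the TPM scale, which also divides by what longer transcripts take up, the summed level of these 3 genes was 49.4, 50.5 and 49.8 TPM in Mock and 54.1, 56.1 and 53.1 TPM in Auxin, so the direction for base chaperones depends on the scale. Psmc3ip, a member by its symbol only, stood at 17.7, 16.1 and 15.8 CPM in Mock, 7.79, 9 and 7.67 CPM in Auxin and 10.8, 10.3 and 11.3 CPM in Reintroduction, at -1.02 (SE 0.080, adjusted p = 4.6e-07) from Mock to Auxin.

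Levels between genes were compared in TPM of the reads assigned to each gene itself, without those on copies. Bowtie2 is the only aligner named by the submitters, and how reads that cross exon junctions were placed is not given. Genes differ in their number of junctions, so the order of genes and of subcomplexes may depend on it, which was not tested. In Mock the highest member was the lid gene Psmd7 at 365 ± 3.67 TPM (SD, n = 3), followed by Psmc5 at 316 ± 5.72, Psma6 at 203 ± 3.28 and Psmb2 at 183 ± 1.80 TPM. None of these 4 overlapped its neighbour in the order, whereas Psmb1 at 174 ± 4.41 and Psmb4 at 173 ± 4.71 TPM did. In Auxin Psmd7 was again the highest, at 218 ± 6.97 TPM, and Psmc6 at 169 ± 9.15 TPM and Psmc5 at 160 ± 6.53 TPM overlapped. By subcomplex, the summed level of the 19S regulatory particle was 1997, 2020 and 2022 TPM in Mock, 1429, 1475 and 1411 TPM in Auxin and 1766, 1792 and 1806 TPM in Reintroduction. That of the constitutive beta ring was 846, 823 and 814 TPM in Mock, 599, 652 and 585 TPM in Auxin and 665, 668 and 663 TPM in Reintroduction. With copies added, Psmb5 at 461 and Psma5 at 404 TPM lay above Psmd7 at 366 TPM in Mock. The constitutive 20S core summed to a mean of 1408 TPM in Mock, below the 2013 TPM of the regulatory particle. With copies added these sums were 2780 and 2401 TPM, so the order depends on which reads are counted.

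The scale mattered for genes with small differences. In TPM, 36 of the 48 tested members were lower in every Auxin library than in every Mock library, 5 were higher in every one (Psmg4, Psmd10, Psmd5, Psma8 and Psmf1) and 7 overlapped, while 22.2% of all genes tested were lower and 54.0% higher without overlap on that scale. From Mock to Reintroduction, 30 were lower and 9 higher in TPM without overlap, beside 21.8% and 53.9% of all genes. When libraries were scaled by total counts, the median over all genes tested moved from 0.05 to 0.26 from Mock to Auxin and the share of calls that were higher from 52.4% to 63.3%. Under that scaling 40 members were lower by the test and 1 was higher, at a median of -0.54, with 27.2% of all genes called lower and 46.8% higher.

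Genes with long exons were higher in Auxin than short ones as a class, and proteasome genes are short: the median exon length was 2313 bases over the tested members and 3909 bases over tested protein-coding genes. From Mock to Auxin the median log2 fold change of protein-coding genes ran from -0.42 in the shortest of 10 equal classes by length to 0.62 in the longest. Within their own class, 45 of the 48 members lay below the median of the tested protein-coding genes. In the shortest class the median of 14 members was -0.81. With the trend on length removed from the counts, 42 members passed the test as lower and 2 as higher (Psma8 and Psmg4), at a median of -0.61, with 31.7% of all genes called lower and 42.1% higher. After washout against Auxin the medians by length ran between -0.06 and 0.06, and 41 members lay above that of their class. The part of length in these differences was not tested.

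**Figure D4:**
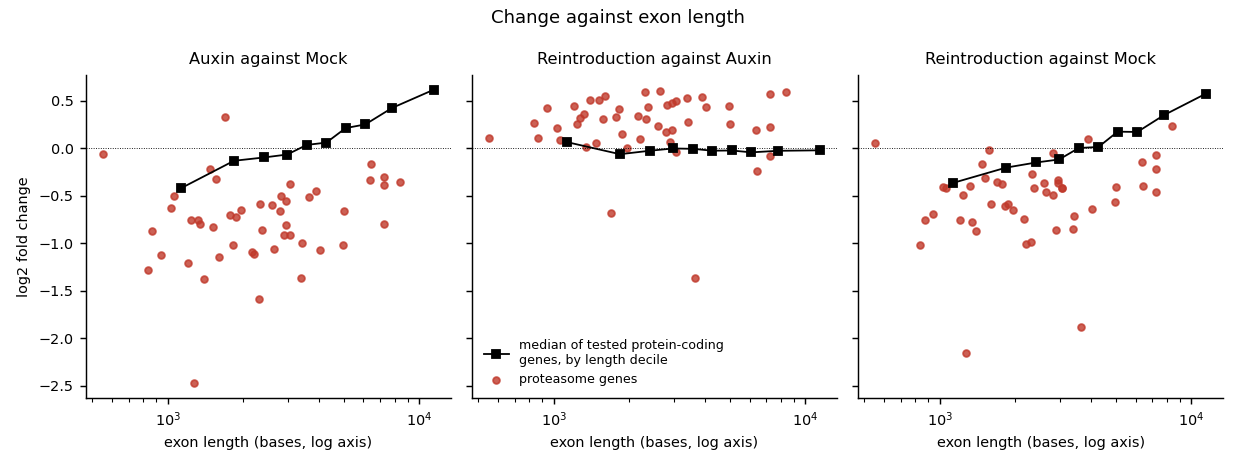
Log2 fold change (y axis) against exon length in bases (log axis) of the 48 tested genes (points), with the median of tested protein-coding genes in each of 10 classes by exon length (squares), in the 3 comparisons. From Mock to Auxin the squares rise with length from -0.42 to 0.62 and 45 genes lie below the median of their class.

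The 20 pseudogene copies that could be tested were all called lower in Auxin, 15 were called higher after washout and 19 were called lower than Mock after washout, where 34.8%, 25.5% and 33.4% of all genes were. The median size of the difference between a copy and its gene was 0.11 from Mock to Auxin. Reads of a gene and its copies share sequence, so the copies are not independent measurements. With copies added to their gene, 44 members were called lower from Mock to Auxin and 1 higher, with 32 higher after washout. Over all genes, 34.8% were then called lower and 38.3% higher from Mock to Auxin, and 25.5% higher after washout. In that fit Psme2b was added to Psme2 and no longer tested by itself. The value of Psma3 after washout against Mock turned from 0.09 to -0.21 and was then called lower.

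**Figure D5:**
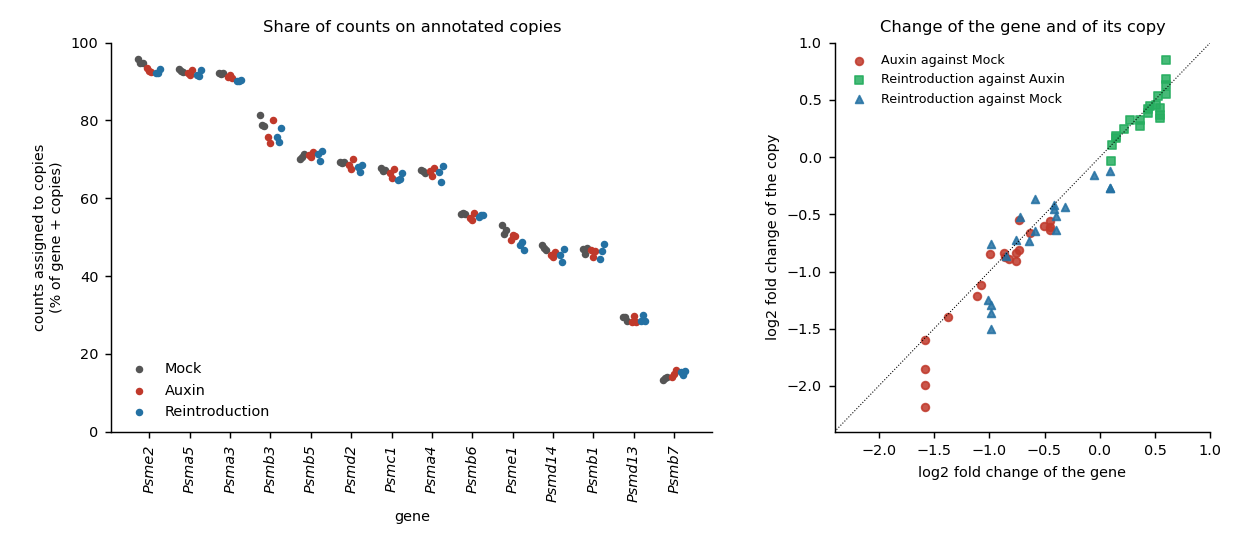
Left, share of counts assigned to annotated copies, in percent of the counts of a gene and its copies, for 14 genes in 9 libraries. Right, log2 fold change of the copy (y axis) against that of its gene (x axis) in the 3 comparisons, with a dotted line where both are equal: the median distance of a copy from the line is 0.11 from Mock to Auxin, 0.04 from Auxin to Reintroduction and 0.20 from Mock to Reintroduction.

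Promoter sequence was available for 42 members (RefSeq, GRCm38.p6, 250 bases before to 50 bases after a start site, 45 windows). The core of the antioxidant response element, TGACNNNGC on either strand, is bound by NFE2L1 with its partners and was found in 6 of these members (14.3%), beside 13.99% of all genes in the table and 16.5% of tested genes. Its matches are given here, with 10 bases on each side and the match in capitals, because NFE2L1 is the best-known activator of these genes.
Psmb5, chr14:54618024-54618052, minus strand: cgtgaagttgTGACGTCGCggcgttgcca
Psmb6, chr11:70525338-70525366, plus strand: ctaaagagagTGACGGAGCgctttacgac
Psmd9, chr5:123228149-123228177, plus strand: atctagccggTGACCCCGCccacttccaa
Psme4, chr11:30771758-30771786, plus strand: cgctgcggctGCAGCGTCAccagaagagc
Psmc6, chr14:45329587-45329615, plus strand: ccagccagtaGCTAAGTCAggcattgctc
Each is written on the strand of its gene, so those of Psme4 and Psmc6 hold the motif on the opposite strand. The sixth match, in Psmd12, lay at the edge of its window. The median log2 fold change from Mock to Auxin was -0.56 in the 6 members with a match and -0.77 in the 34 tested members without one.

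The ETS core CCGGAAG, on either strand, was found in 15 of the 42 members (35.7%), beside 18.04% of tested genes, and the CCAAT box in 15 (35.7%), beside 42.7%. The 15 members with the ETS core had a median log2 fold change of -0.75 from Mock to Auxin and the 25 tested ones without it -0.76. A match is a description of the letters only.

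Of 9 partners of the proteasome that carry other symbols, 6 were called lower and 2 higher from Mock to Auxin, where 34.8% of all genes were called lower and 38.4% higher. Pomp, a chaperone of core assembly, had the largest fall of the list and stood at 121, 112 and 111 CPM in Mock, 44.5, 51.7 and 41.4 CPM in Auxin and 60.6, 59.6 and 59.5 CPM in Reintroduction, at -1.32 (SE 0.076, adjusted p = 3.7e-08) from Mock to Auxin. Ecpas, a proteasome adaptor and scaffold protein named here after its values were seen, had the change of largest size in the list: it stood at 39.4, 38.7 and 41.7 CPM in Mock, 113.8, 96.4 and 110 CPM in Auxin and 115, 120 and 118 CPM in Reintroduction, at 1.42 (SE 0.066, adjusted p = 7.6e-09) from Mock to Auxin. Adrm1, a ubiquitin receptor of the base, was at -0.52. After washout Pomp was at 0.38 and Adrm1 at 0.26 against Auxin, both called, and the call for Adrm1 was lost without Auxin replicate 1 or 3 or Reintroduction replicate 1 (0.21 in each).

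Of the 6 genes of the NFE2L1 pathway, 3 were called higher in Auxin and 1 lower, a share called below the 73.2% of all genes. Nfe2l1 stood at 228, 237 and 230 CPM in Mock, 522, 535 and 501 CPM in Auxin and 232, 229 and 246 CPM in Reintroduction, so its Auxin libraries were above all others. On the log2 scale it differed by 1.16 (SE 0.051, adjusted p = 5.1e-09) from Mock to Auxin and -1.14 (SE 0.051, adjusted p = 2.6e-08) after washout against Auxin. Vcp, the ATPase that extracts NFE2L1 from the endoplasmic reticulum membrane among its many clients, was at -0.71 and 0.54. Of the 6 genes for ubiquitin and its activating enzymes, 1 was called higher and 2 lower in Auxin, and of the 5 shuttle factors 2 higher and 1 lower, also below the 73.2% of all genes.

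Of 8 genes of antigen processing and its regulation by interferon, which share control with the immunoproteasome, 4 were called higher and 2 lower in Auxin, a share near the 73.2% of all genes. Irf1, an interferon-responsive activator of Psmb9 and Tap1, stood at 31.6, 30.4 and 32.6 CPM in Mock, 16.4, 19.7 and 15.4 CPM in Auxin and 25.7, 23.9 and 25.8 CPM in Reintroduction, at -0.88 (SE 0.085, adjusted p = 2.5e-06) from Mock to Auxin. B2m, the light chain of class I molecules, stood at 16.6, 15.9 and 15.7 CPM in Mock, 34.5, 39.6 and 36.2 CPM in Auxin and 29.3, 28.7 and 29.8 CPM in Reintroduction, at 1.19 (SE 0.062, adjusted p = 1.7e-08) from Mock to Auxin.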

How the data were processed

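Poly(A) RNA of 9 libraries was sequenced in pairs of reads, 3 libraries in each of the groups Mock, Auxin and Reintroduction. The deposited values are raw counts per gene, which the authors made with featureCounts 2.0.6 over exons, with no strand option and each read of a pair counted, per the file headers. The submitters' processing notes also name Trim Galore 0.6.10, FastQC 0.12.1, Bowtie2 2.5.3, SAMtools 1.20 and the build mm10. Whether reads that match several places were kept is not given in the sources used here.

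From the counts, log2 fold changes were computed with edgeR 4.0.16 (R 4.3.3): genes kept by filterByExpr (20838), TMM scaling, 1 fit over the 9 libraries and the quasi-likelihood test, two-sided, with Benjamini-Hochberg adjustment over all genes tested. Every adjusted p given is from this test, and calls were made under 0.05. Where an alternative is named, the adjusted p is from the same test in a new fit under that alternative. Standard errors were taken from the test statistic. CPM is TMM-scaled, and TPM divides counts by exon length. The fit was run on simulated data with 200 of 20838 genes changed 2-fold. It recovered 74% of these for Mock to Auxin, 75% for Auxin to Reintroduction and 68.5% for Mock to Reintroduction. False calls were 3.9%, 2.6% and 6.16% of the calls in the same order. In the data 73.2% of genes were called from Mock to Auxin, so the simulation cannot show how the fit does at such a share. Gene names and types came from GENCODE M21, and copies were found with BLAST 2.17.0.

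The members, the gene lists and the rule for naming genes were chosen with earlier results of these data known. Values per library are given for the catalytic and immunoproteasome genes, for the members with the largest and the smallest change in each subcomplex, and for the 3 highest and 3 lowest members of each later comparison. Pomp, Adrm1, Nfe2l1, Vcp, Tap1, Irf1, B2m and Ecpas were named in addition. Alternatives covered scaling, filters, DESeq2 1.42.0, a fold minimum of 1.5, trends on length and GC content, a replicate block, the groups fitted, and each library left out. Adding copies to their gene was chosen after seeing the data. The design describes the replicates as biological. Where they were not separate cultures, p-values measure only the spread between these samples.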

Additional observations from a re-analysis of the deposited data

How the results depend on the processing

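From Mock to Auxin, 39 of 46 called members kept direction and call under every alternative other than the fold minimum, from Auxin to Reintroduction 22 of 35 and from Mock to Reintroduction 33 of 40. The cause of the changes below was not tested. Requiring a fold change of at least 1.5 left 0 members higher from Mock to Auxin (edgeR), 3 higher from Auxin to Reintroduction and 18 lower from Mock to Reintroduction. The median of the members from Mock to Auxin was -0.54 with total counts, -0.61 with the length trend removed and -0.86 to -0.70 with a library left out. Members called higher were 2 with the length trend and 2 with length and GC trends removed, beside 42.1% and 42.4% of all genes. Members called higher from Auxin to Reintroduction ranged from 23 to 37 with a library left out, beside 20.7% to 27% of all genes. From Mock to Reintroduction, members called higher were 3 with total counts, 1 with no filter, 1 with at least 1 CPM in 3 libraries, 1 with only the groups compared, 2 with the length trend removed and 1 with both trends removed. Of all genes, 41.1%, 22.1%, 39.2%, 37.4%, 35.6% and 35% were called higher in the same order. The median of the members was -0.31, -0.36 and -0.35 with total counts, the length trend and both trends. Scaling by total counts moved the share of higher calls over all genes from 50.0% to 40.1% from Auxin to Reintroduction and from 50.9% to 59.9% from Mock to Reintroduction. Of the 10 highest members by TPM, 5 in Mock, 6 in Auxin and 5 in Reintroduction were among the 10 highest by CPM.

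Signs reversed for some genes, also for called members: Psmd10 and Psmf1 from Mock to Auxin, and Psmc6 and Psmd11 from Auxin to Reintroduction. From Mock to Auxin, total counts gave Psmf1 0.0473 and Psmg4 0.15, the CPM filter gave Psmg4 0.0090, the length trend gave Psmg4 0.58 and Psmd10 0.11, and both trends gave Psmg4 0.62. From Auxin to Reintroduction, Psmb4 turned to 0.0085 (DESeq2 size factors), 0.0069 (no filter), 0.00857 (DESeq2), 0.0018 (replicate block), 0.058 (both trends), 0.00043 (copies summed) and, with a library left out, ranged from -0.056 to 0.076. Psmg1 turned to -0.061 (total counts), -0.029 (CPM filter), -0.034 (length trend), -0.00997 (counts halved) and, with a library left out, ranged from -0.033 to 0.078. Total counts also turned Psmg3 to -0.018 and Psmd10 to -0.026, and the length trend turned Psmg4 to -0.059, Psmb5 to -0.024 and Psmg2 to -0.015. Both trends turned Psmd9 to 0.016, Psmd8 to 0.009495, Psmd11 to -0.051, Psmc6 to -0.22, Psmg2 to -0.016 and Psmd10 to -0.0979, and Psmd8 ranged from -0.10 to 0.036 with a library left out. From Mock to Reintroduction, total counts turned Psmd5 to 0.058, Psmd14 to 0.081 and Psmc6 to 0.11. The length trend turned Psmd14 to 0.038, Psme4 to -0.18, Nfe2l1 to -0.17, Psmc6 to 0.25 and Psmd10 to 0.12, and both trends turned Psme4 to -0.26, Nfe2l1 to -0.00295 and Psma3 to -0.24. Copies summed turned Psma3 to -0.21, and with a library left out Nfe2l1 ranged from -0.029 to 0.046 and Psmg4 from -0.018 to 0.090.

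With the replicate block, members called lower and higher were 44 and 1 from Mock to Auxin, 3 and 30 from Auxin to Reintroduction and 40 and 0 from Mock to Reintroduction. Of all genes, 33.9% and 37.1%, 23.4% and 23.7%, and 32.3% and 33.2% were called lower and higher in the same order. Deviations of same-numbered libraries correlated at -0.172 to 0.0547 and those of differently numbered ones at -0.177 to 0.239. No pairing was used in the main fit. Such correlations cannot show whether same-numbered libraries were handled together. Psmb8 and Psmb11 were too shallow to compare.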
